A study of Mus musculus with 18 samples.

Results

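Big and small cells were sorted from the same cultures of mouse B-cell lymphoma cells that had grown again after a senescence-inducing drug treatment, and their gene expression was compared. The big minus small difference was taken within each of 3 lymphomas, numbered 4146, 4936 and 5043, so that 6 of the 18 samples of the series enter it, 1 big and 1 small array per lymphoma. It is described over 11897 tested genes, each measured by 1 probe set of an Affymetrix mouse array.

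All samples came from lymph node lymphomas of Emu-myc mice in a C57/Bl6 background, in which an immunoglobulin enhancer drives the Myc oncogene in B cells. All were Suv39h1-null, so they lacked a histone H3 methyltransferase of heterochromatin, and all were transduced with Suv39h1-ERT2, which 4-hydroxytamoxifen (4-OHT) activates, and with Bcl2, which blocks apoptosis. The big outgrowth and small outgrowth groups (3 arrays each) had received the DNA-damaging drug Adriamycin (ADR) with 4-OHT for 5 days and were then grown for 14 days without either, before sorting. The groups set beside them were ADR outgrowth (2 arrays with values), ADR+4-OHT 5 d (3 arrays), ADR 5 d (3 arrays) and untreated cells (3 arrays). No group received 4-OHT alone, and each lymphoma gave 1 array per group. The SEs and p-values rest on the spread between lymphomas that is left after each lymphoma's mean offset is removed. That spread is pooled over all 6 groups and moderated across genes, so it is not the spread of the big minus small differences alone. Ages of the animals and the size gate are not given in the sources used here.

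Senescent cells stop dividing, but remain metabolically active, and they are often enlarged and flattened. Many release cytokines, chemokines and matrix proteases, together called the senescence-associated secretory phenotype (SASP). Histone H3 methylation by Suv39h1 is known as a part of the senescence arrest of Emu-myc lymphoma cells, in which it silences genes needed for S phase.

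Both sorted arrays of lymphoma 5043 stood apart from the other arrays, as did the ADR 5 d array of lymphoma 4936. Their scores on the first principal component were 66.3 (big outgrowth), 58.5 (small outgrowth) and 66.8 (ADR 5 d), while no other array exceeded 5.94. Xist, a noncoding RNA made from the inactive X, had log2 signals of 7.85, 8.99 and 12.26 in big cells of lymphomas 4146, 4936 and 5043, against 6.05, 5.89 and 12.07 in small cells. On the other arrays of lymphoma 5043 it was 6.27 (untreated), 5.65 (ADR 5 d) and 5.55 (ADR+4-OHT 5 d). The ADR 5 d array of lymphoma 4936 had 11.97. Of 6 immunoglobulin variable-region probe sets, 3 on the big and 4 on the small array of lymphoma 5043 lay at least 2 log2 units from that lymphoma's median. None of the 6 differed by that much between the big and the small array of any lymphoma. Whether the 2 sorted arrays of lymphoma 5043 hold cells of that lymphoma was not settled, and it bears on the pairing within lymphomas and on every comparison of these arrays with other groups. The counts, the list medians and the genes described first are therefore also given without lymphoma 5043 or without the 3 arrays. The 3′ minus 5′ difference of the Tfrc control probe sets, a sign of RNA integrity, was 2.46, 3.36 and 2.86 log2 units in big cells, against 1.89, 1.90 and 2.91 in small cells. It was 1.50, 1.76 and 1.60 in big cells and 1.53, 1.81 and 1.41 in small cells for b-Actin, and 0.453, 0.459 and 0.796 in big cells and 0.417, 0.667 and 0.377 in small cells for Gapdh. The Tfrc difference was higher in big cells of lymphomas 4146 and 4936 and the b-Actin difference was not, and the part of RNA integrity in the results was not tested.

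The first comparison asked which genes differ between big and small cells. Fn1 and Bgn, which encode matrix proteins, Lgals3, Anxa2 and the transcription factor gene Klf4 were 2.94 to 4.3 log2 units higher in big cells on average, and their big and small arrays did not overlap. Such a lack of overlap was common: of 11897 genes, 1069 had every big array above every small array and 1518 had every big array below. Thumpd1, Ipo7 and Xpc were 0.84 to 1.5 log2 units lower. No gene reached an adjusted p of 0.05: limma called 0 of 11897 genes, 0% of those tested, and the lowest adjusted p was 0.0654. At an unadjusted p under 0.05 there were 1243 genes, 550 of them higher and 693 lower in big cells, and 33 genes had an adjusted p under 0.1, 15 higher and 18 lower. The differences below are therefore values with their errors, and no single gene is called. The call depended on the model: 30 genes passed without the lymphoma term, 68 probe sets when each probe set was tested by itself, 261 genes with array quality weights and 3 genes (Klf4, Ecm1 and Col6a3, the last named after its value was seen) without the 3 arrays that stood apart.

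Differences ran in 1 direction in all 3 lymphomas for 41.1% of genes, 2120 higher and 2771 lower in big cells. Across genes, the differences correlated with r = 0.42 between lymphomas 4146 and 4936, 0.536 between 4146 and 5043, and 0.39 between 4936 and 5043. These are descriptions across 11897 genes, which are not independent. Large differences lay mostly on 1 side. In all 3 lymphomas at least 2-fold higher in big cells were 78 genes (0.656% of those tested), and at least 2-fold lower were 3 genes (0.0252%). This rule of size was chosen after the data were seen and is no test. In single lymphomas, at least 2-fold higher and lower were 403 and 63 genes in lymphoma 4146, 583 and 266 in lymphoma 4936, and 279 and 99 in lymphoma 5043. Leaving out lymphoma 5043, the rule took 181 higher and 11 lower genes.

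**Figure D1:**
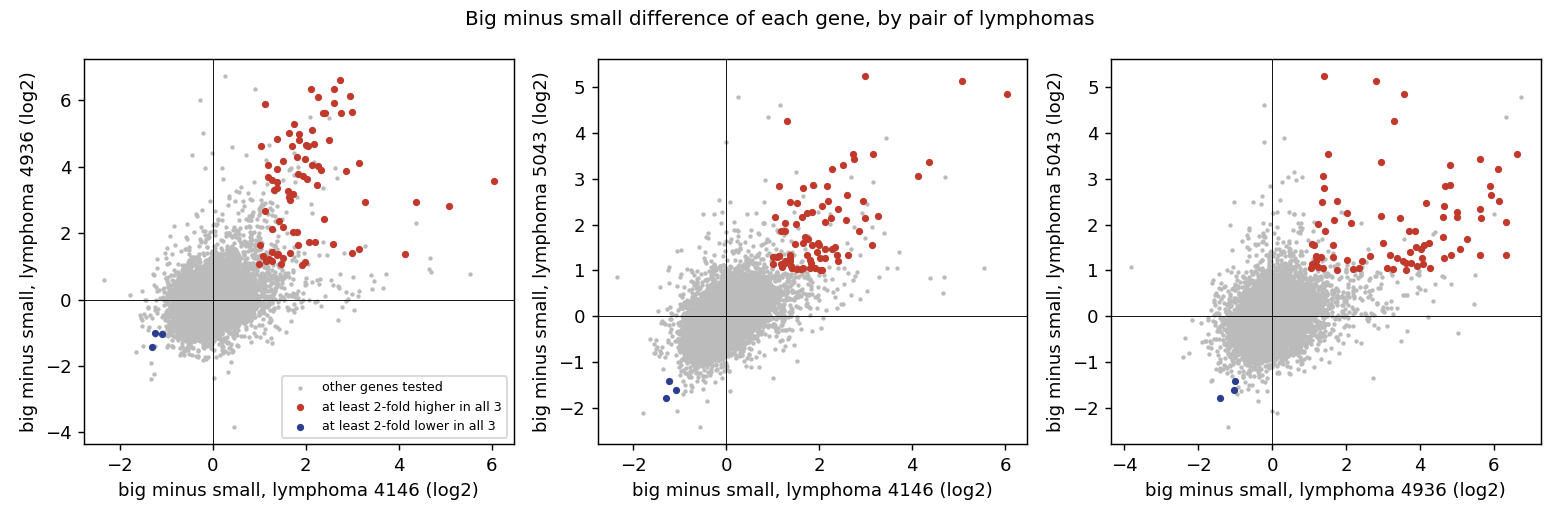
Big minus small difference (log2) of each of 11897 tested genes in 1 lymphoma against another, for the 3 pairs of lymphomas, with genes at least 2-fold higher (78) or lower (3) in all 3 lymphomas in colour. The coloured higher genes reach past 6 log2 units in lymphoma 4936, and the lower ones stay within 1.78.

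The 78 genes had a median difference of 1.85 log2 units in lymphoma 4146, 3.56 in lymphoma 4936 and 1.60 in lymphoma 5043. The difference was largest in lymphoma 4936 for 54 of them, in lymphoma 5043 for 13 and in lymphoma 4146 for 11. For 73 of the 78 the mean of big cells lay above that of ADR outgrowth. Of the 78, 19 lay under the filter value of 4.86 on all 3 small arrays, so that their small-cell level is close to background. Raising every value under the filter to it left the mean difference of 72 of the 78 at 2-fold or more, and 58 of the 78 at 2-fold or more in each lymphoma.

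Fn1 encodes fibronectin, a matrix glycoprotein that integrins bind, and lies on chromosome 1 at 71585473 to 71653280 (GRCm38.p6). Its log2 signal was 10.76, 11.84 and 10.37 in big cells of lymphomas 4146, 4936 and 5043, against 8.01, 6.21 and 6.94 in small cells. Every big array lay above every small array, by a mean of 3.94 log2 units (SE 0.64, limma adjusted p = 0.0654). A second Fn1 probe set, which did not pass the filter, gave 1.07. Bgn, the matrix proteoglycan biglycan, had 10.81, 12.01 and 10.65 in big cells and 8.30, 7.21 and 7.35 in small cells. The Bgn difference was 3.54 (SE 0.65, limma adjusted p = 0.0883), and its other probe sets gave 3.33 and 2.91. Both genes were highest in big cells of lymphoma 4936 and lowest in small cells of that lymphoma.

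Lgals3, which encodes the sugar-binding protein galectin-3, had log2 signals of 9.72, 12.41 and 9.48 in big cells, against 6.98, 5.79 and 5.94 in small cells, a difference of 4.3 (SE 0.81, limma adjusted p = 0.0904). Anxa2, a membrane-binding annexin, had 8.32, 11.03 and 7.59 in big cells and 5.38, 4.90 and 5.09 in small cells, a difference of 3.86 (SE 0.71, limma adjusted p = 0.0883). Its small arrays lay within 0.5 log2 units of each other, and its big arrays were spread over more than 3. The other probe sets of Anxa2 were under the filter and differed by 0.31 and 0.10. Emp1, a membrane protein of the PMP22 family, had 7.70, 9.51 and 6.63 in big cells and 4.71, 3.86 and 4.48 in small cells (difference 3.59, SE 0.57, limma adjusted p = 0.0654), but a second Emp1 probe set that passed the filter gave 0.21. Without lymphoma 5043 the differences were 4.19 for Fn1, 3.65 for Bgn, 4.68 for Lgals3, 4.54 for Anxa2 and 4.32 for Emp1.

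Klf4 encodes a zinc-finger transcription factor known as 1 of the factors that reprogram somatic cells. Its log2 signal was 7.06, 8.0 and 5.54 in big cells, against 3.92, 3.88 and 3.99 in small cells, which are under the filter. The difference was 2.94 (SE 0.43, limma adjusted p = 0.0654), and a second probe set gave 1.92. Without the 3 arrays that stood apart it was 3.63, with a limma adjusted p of 0.00911. Ecm1, extracellular matrix protein 1, had 8.36, 8.60 and 6.89 in big cells and 5.49, 4.73 and 5.04 in small cells (difference 2.87, SE 0.47, limma adjusted p = 0.0654). Without those 3 arrays the Ecm1 difference was 3.37, with a limma adjusted p of 0.0416.

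The remaining genes of the 15 highest by p were Nrd1, Aqp1, Rpl39l, Cyp2c55, Gm41724, Sqor, Myo9b and Nrn1. Aqp1, a water channel, Nrn1, a membrane-anchored protein known from neurons, and Cyp2c55, a cytochrome P450, had small-cell log2 signals of at most 4.48 on every array. Nrd1, a metalloendopeptidase, had close values across the lymphomas: 9.67, 9.80 and 9.87 in big cells, against 8.97, 8.96 and 9.04 in small cells (difference 0.79, SE 0.12). A second Nrd1 probe set that passed the filter gave 0.22. Myo9b, an unconventional myosin, differed by 0.74 and Sqor, a mitochondrial sulfide oxidase, by 1.41. Of the 15 higher genes, 4 had other probe sets that passed the filter, 5 in all. All 5 were also higher in big cells on average, and 3 of them by at least 2-fold.

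**Figure D2:**
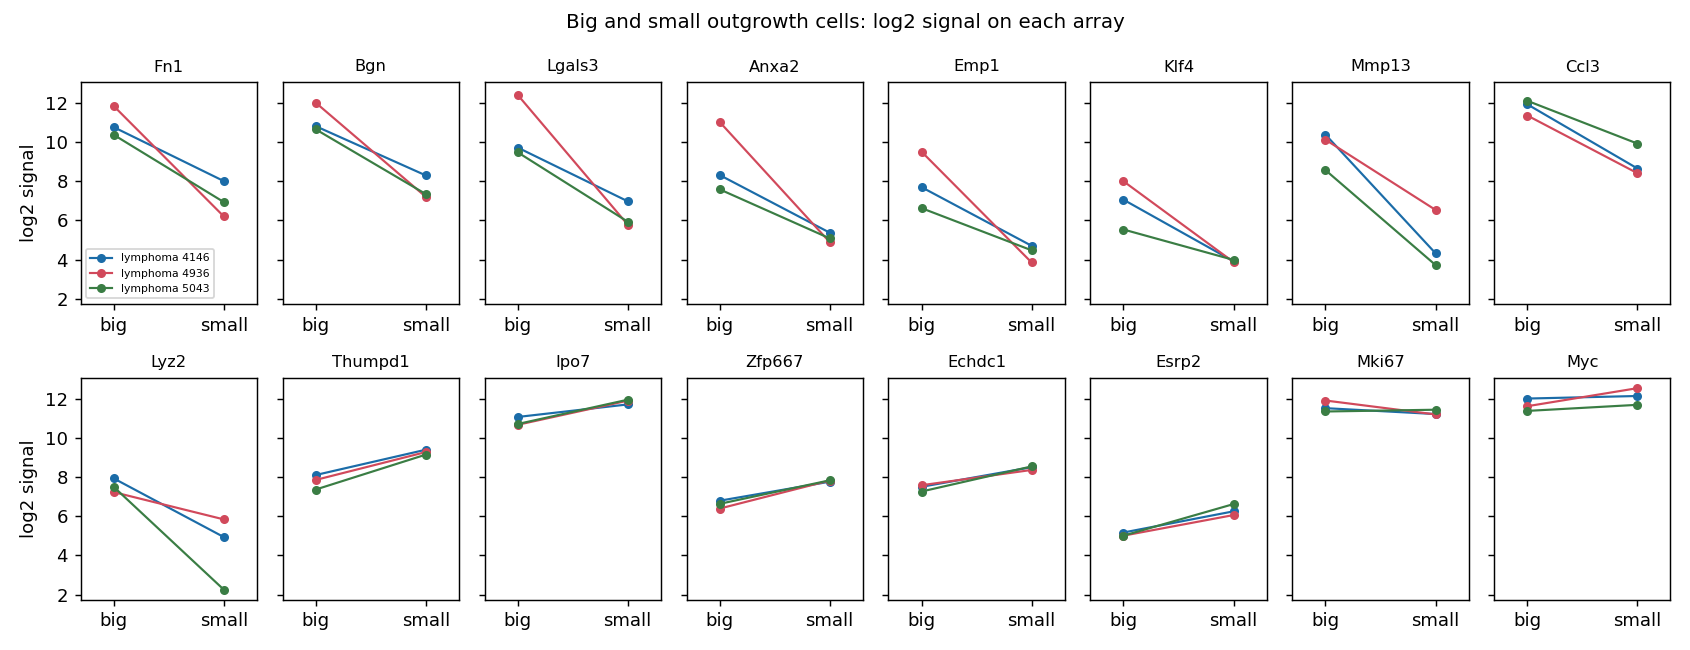
Log2 signal on each big (left) and small (right) outgrowth array for 16 genes, with a line joining the arrays of 1 lymphoma. Fn1, Bgn, Lgals3, Anxa2, Emp1, Klf4, Mmp13, Ccl3 and Lyz2 lie higher in big cells of each lymphoma, Thumpd1, Ipo7, Zfp667, Echdc1, Esrp2 and Myc lie lower, and the Mki67 lines cross.

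Promoter sequences were looked at for the higher genes, because members of the AP-1 family, which bind TGACTCA, were among the genes that lay higher. RefSeq promoter entries (GRCm38.p6) existed for 61 of the 78 genes, and the 250 bases before each annotated start were searched on both strands. TGACTCA was present for 8 of 61 genes (13.1%), and for 3.98% of the 9647 tested genes with an entry. The NF-kB motif GGGNNTTTCC was present for 6 of 61 (9.84%), and for 1.81% of tested genes. The KLF or SP motif CCCACCC was present for 19 (31.1%, against 22.2% of tested genes). Other motifs searched were the cyclic AMP response element TGACGTCA (0%, against 3.01%), the TEAD motif CATTCCA (4.92%, against 3.18%), the CArG box of serum response factor (1.64%, against 1.41%), the E-box CACGTG (3.28%, against 9.96%), the hypoxia motif ACGTG (18%, against 25.1%) and the CCAAT box (34.4%, against 40.1%). The E-box holds the letters of the hypoxia motif. The motifs were chosen after the data were seen, and a match is a description of letters, not a binding site.

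The AP-1 matches of the 5 named genes among the 8 are shown with up to 30 bases on each side, 5′ to 3′ on the gene's strand, in capitals. Anxa2 is chr9:69453558-69453624 (plus strand), Ddit3 chr10:127290543-127290587 (plus), Ecm1 chr3:95739597-95739663 (minus), Emp1 chr6:135362756-135362822 (plus) and Mmp13 chr9:7272449-7272513 (plus). The match begins 95 bases before the start for Anxa2, 242 for Ddit3, 64 for Ecm1, 145 for Emp1 and 35 for Mmp13. The starts used for Ecm1 and Emp1 lie inside the annotated gene spans, and so do their stretches. These spans run from 95734147 to 95739876 for Ecm1 and from 135362550 to 135383173 for Emp1.
Anxa2: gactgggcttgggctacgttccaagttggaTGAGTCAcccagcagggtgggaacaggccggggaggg
Ddit3: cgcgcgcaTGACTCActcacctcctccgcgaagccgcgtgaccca
Ecm1: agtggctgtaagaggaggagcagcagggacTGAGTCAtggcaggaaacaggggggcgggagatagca
Emp1: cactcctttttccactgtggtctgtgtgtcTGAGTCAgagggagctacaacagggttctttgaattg
Mmp13: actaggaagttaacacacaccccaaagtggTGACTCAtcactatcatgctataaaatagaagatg

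Among genes lower in big cells, Thumpd1, a cofactor of tRNA acetylation, had log2 signals of 8.10, 7.85 and 7.36 in big cells, against 9.39, 9.27 and 9.14 in small cells. The groups did not overlap, and the difference was -1.5 (SE 0.25, limma adjusted p = 0.0654). Ipo7, importin 7, which carries proteins into the nucleus, had 11.06, 10.66 and 10.70 in big cells and 11.70, 11.89 and 11.94 in small cells (difference -1.04, SE 0.15, limma adjusted p = 0.0654). A dimmer Ipo7 probe set that passed the filter gave 0.52, so the probe sets disagree. Zfp667, a zinc-finger gene, had 6.79, 6.39 and 6.63 in big cells and 7.76, 7.82 and 7.83 in small cells (difference -1.20, SE 0.19, limma adjusted p = 0.0654). Without lymphoma 5043 the differences were -1.35 for Thumpd1, -0.93 for Ipo7 and -1.20 for Zfp667.

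Xpc, which recognises damaged DNA in nucleotide excision repair, differed by -0.84 (SE 0.14) and Terf2ip, a protein of the telomere complex, by -0.68 (SE 0.12). Pus3, a pseudouridine synthase of tRNA, differed by -1.07, Gnl3l, a nucleolar GTPase, by -0.84, and Cox15, an enzyme of heme A synthesis, by -1.0. Ptdss1, a phosphatidylserine synthase, differed by -0.74 and Esrp2, an RNA-splicing regulator, by -1.24. The remaining lower genes by the naming rule were Echdc1, Dcaf17, Pacc1, Fam185a and Tmem101, with differences of -0.63 to -1.23. Across the 15 lower genes the SE ran from 0.12 to 0.25 and the adjusted p from 0.0654 to 0.0885. Of the 15, 8 genes had other probe sets that passed the filter, 14 in all, and 13 of these were also lower in big cells but none by 2-fold. The genes at least 2-fold lower in every lymphoma were Thumpd1, Esrp2 and Pigm, a mannosyltransferase of the GPI anchor that was named after its value was seen, with Pigm at -1.21 (SE 0.26). Second probe sets that passed the filter gave -0.23 for Esrp2 and -0.46 for Pigm.

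None of the genes fixed by the design had an adjusted p near the threshold. Bcl2 had 8.47, 9.24 and 6.95 in big cells and 8.51, 9.25 and 6.94 in small cells, a difference of -0.01 (SE 0.83), and its 4 other probe sets gave -0.23 to 1.02. Myc differed by -0.45 (SE 0.29, limma adjusted p = 0.652). Cdkn1a, the p21 inhibitor of cyclin-dependent kinases, had 13.33, 12.58 and 11.34 in big cells and 11.92, 12.64 and 9.93 in small cells, higher in big cells of 2 lymphomas and 0.06 lower in lymphoma 4936. Cdkn2a, the locus of the p16 and p19 tumour suppressors, had 6.68, 8.61 and 9.12 in big cells and 5.97, 4.26 and 7.34 in small cells (difference 2.28, SE 1.92, limma adjusted p = 0.761). Mki67, a proliferation marker, had 11.51, 11.90 and 11.34 in big cells and 11.21, 11.19 and 11.43 in small cells, and the groups overlapped. Suv39h1 is not analysed here.

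The gene lists were described by counts and medians, and over all genes tested the median difference was -0.02. Of all 11897 genes, 2120 lay higher and 2771 lower in big cells of all 3 lymphomas, 41.1% together, and the list counts stand beside these. In every list 0 members were called. A member passed the filter with 3 arrays, so the 3 big arrays alone could pass it. Counts and medians over tested members can therefore favour members that are high in big cells. The fibroblast and stroma markers had the highest median, 2.57 (1.46 in lymphoma 4146, 4.20 in 4936 and 1.55 in 5043), or 3.05 without lymphoma 5043. Of 21 markers with a probe set 12 were tested, 11 of them lay higher in big cells of all 3 lymphomas and none lay lower. Fn1 and Bgn led, followed by Sparc, Col1a2 and Dcn, with differences of 3.29, 3.24 and 3.04. These 3 matrix protein genes were named after their values were seen. Other probe sets that passed the filter gave 0.03 and 1.91 for Sparc and 1.58 for Col1a2. The fibroblast receptor gene Pdgfra, also named after its values were seen, had 5.95, 6.72 and 5.53 in big cells and 5.13, 5.04 and 4.97 in small cells (difference 1.02, SE 0.21). Col1a1, Col6a1, Lum, Thy1, Pdgfrb, Postn, Loxl1, Ccn2 and Fap did not pass the filter.

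Summed over the 21 markers, linear signal was 5832, 15630 and 4631 in big cells of lymphomas 4146, 4936 and 5043, against 1375, 721 and 804 in small cells, and 529.5 to 673.8 in untreated cells of lymphomas 4146 and 5043 and 427.1 in lymphoma 4936. Above the filter were 15, 15 and 12 of the 21 in big cells, against 9, 9 and 9 in small cells. The macrophage and myeloid markers, 25 with a probe set, summed to 7555, 3762 and 5803 in big cells, against 2885, 2951 and 2808 in small cells. Above the filter were 17, 13 and 17 of these in big cells, against 11, 14 and 9 in small cells. In ADR outgrowth of lymphomas 4146 and 4936 the macrophage sums were 7245 and 3832, near those of big cells. The fibroblast sums there were 571.9 and 433.4. The 32 B cell markers summed to 56680, 49240 and 50680 in big cells, against 73750, 57570 and 52190 in small cells, and were lower in big cells of each lymphoma. The part of fibroblast or macrophage RNA in the differences described here was not tested, and in bulk samples fewer cells of a type and less RNA per cell cannot be told apart.

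**Figure D3:**
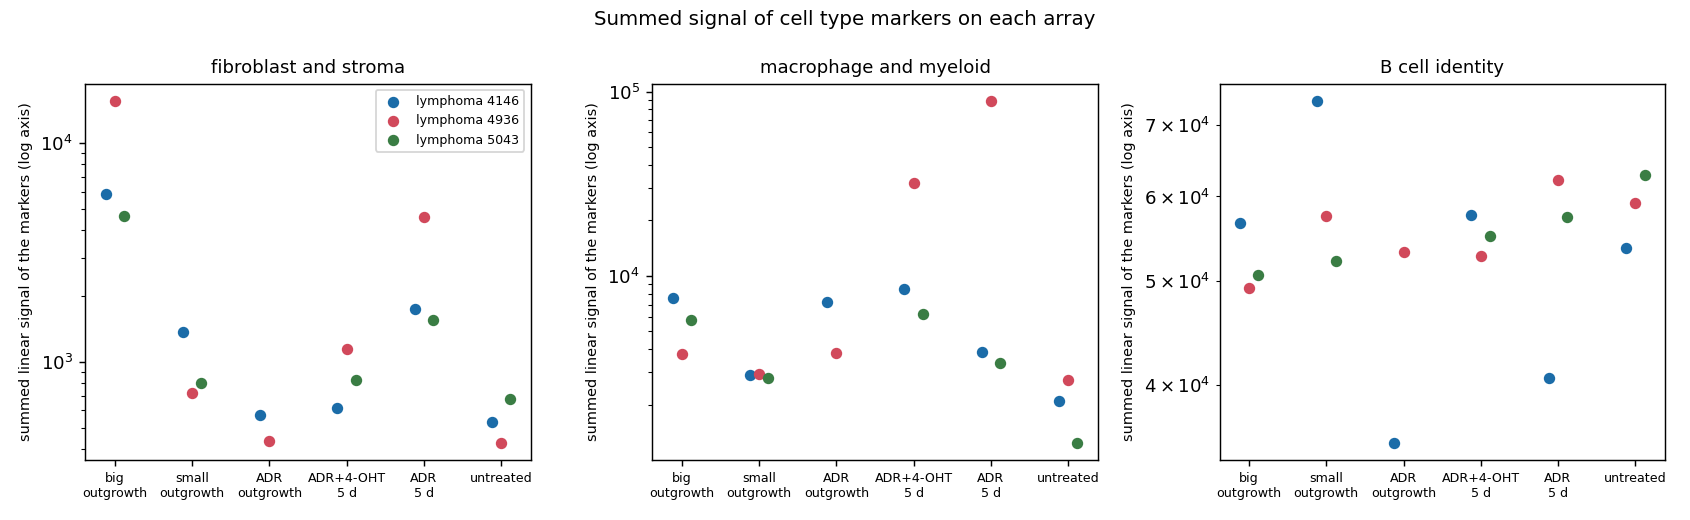
Summed linear signal of the cell type markers on each array (log axis), by group, with 1 point per lymphoma. The fibroblast and stroma sum is highest in big outgrowth cells (4631 to 15630), the macrophage sum is highest in ADR 5 d of lymphoma 4936 (89120), and the B cell sum of each big array lies below that of the small array of its lymphoma.

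Of the macrophage list 16 markers were tested, 9 lay higher in all 3 lymphomas and none lay lower, and the median was 0.88 (1.22, 0.29 and 1.75 in lymphomas 4146, 4936 and 5043), or 0.71 without lymphoma 5043. Lyz2, which encodes lysozyme of myeloid cells, had 7.93, 7.23 and 7.5 in big cells and 4.94, 5.84 and 2.26 in small cells (difference 3.21, SE 1.15, limma adjusted p = 0.353). Lyz1, a neighbouring lysozyme gene of similar sequence, had 9.33, 8.36 and 8.58 in big cells and 4.25, 5.56 and 3.46 in small cells. The 2 lysozyme genes are so alike that their probe sets may share signal. In ADR outgrowth Lyz2 averaged 7.55 and Lyz1 8.71, against 7.55 and 8.76 in big cells. Adgre1, which encodes an adhesion receptor of mouse macrophages and was named after its values were seen, had 5.72, 4.44 and 6.32 in big cells and 3.74, 3.99 and 4.05 in small cells, so the big array of lymphoma 4936 stayed under the filter. C1qa, C1qb, C1qc, Mrc1, Cd163, Marco, Itgax, Clec7a and Aif1 did not pass the filter.

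B cell genes had a median of -0.10 (-0.34, -0.16 and 0.34 by lymphoma), or -0.28 without lymphoma 5043, with 5 of 30 tested members higher in all 3 lymphomas and 4 lower. Ptprc, the leukocyte antigen CD45, named after its values were seen, was bright in both populations, at 12.77, 12.03 and 12.26 in big cells and 12.33, 12.37 and 12.37 in small cells. Cd72, a B cell co-receptor, had 10.30, 10.34 and 10.38 in big cells and 9.57, 9.28 and 9.87 in small cells (difference 0.76, SE 0.23, limma adjusted p = 0.232). Both populations thus carried B cell markers, 29, 29 and 27 of 32 above the filter in big cells and the same numbers in small cells.

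The SASP list had a median of 1.11 (1.36, 0.51 and 0.87 by lymphoma), or 1.09 without lymphoma 5043, and 17 of its 24 tested members lay higher in big cells of every lymphoma and 0 lower. Mmp13, a collagenase, had the largest mean difference of all genes tested. Its log2 signal was 10.38, 10.12 and 8.57 in big cells, against 4.33, 6.54 and 3.73 in small cells (difference 4.82, SE 1.18, limma adjusted p = 0.163). Ccl3, a chemokine for monocytes, had 11.92, 11.35 and 12.10 in big cells and 8.65, 8.41 and 9.92 in small cells (difference 2.80, SE 1.18, limma adjusted p = 0.425). For both genes the groups did not overlap. Il6, a cytokine named after its values were seen, had 5.75, 4.50 and 3.70 in big cells and 1.06, 3.24 and 2.84 in small cells, and only the big array of lymphoma 4146 was above the filter. Several of these genes are also expressed by macrophages and fibroblasts, whose summed markers were higher in big than in small cells of each lymphoma. The part of such cells in the SASP differences was not tested.

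NF-kB targets had a median of 0.64 (0.51, 0.53 and 0.48 by lymphoma), or 0.68 without lymphoma 5043, and 18 of 23 lay higher in every lymphoma and 0 lower. Ier3, an early stress-response gene, had 9.16, 9.70 and 8.24 in big cells and 7.42, 7.67 and 5.99 in small cells, and Ikbke, a kinase of the pathway, differed by 1.21 (SE 0.36). Immediate early and AP-1 genes had a median of 0.63, or 0.43 without lymphoma 5043, and 13 of 26 lay higher in every lymphoma. The median was 0.02 in lymphoma 4936, against 0.81 in 4146 and 0.56 in 5043. Atf3, a stress-induced transcription factor, differed by 1.58 (SE 0.65), and Fosb, an AP-1 subunit, had 8.01, 7.10 and 6.08 in big cells and 6.02, 5.97 and 4.53 in small cells.

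Glycolysis genes had a median of 0.62 (0.32, 0.90 and 0.31 by lymphoma), or 0.69 without lymphoma 5043, and 19 of 25 lay higher in every lymphoma and 0 lower. Eno2, an enolase, had 6.60, 8.30 and 5.04 in big cells and 4.65, 4.57 and 3.64 in small cells. Slc2a1, the glucose transporter GLUT1, had 12.48, 12.37 and 11.96 in big cells and 11.09, 9.55 and 11.08 in small cells (difference 1.70, SE 0.45, limma adjusted p = 0.195). The cytoskeleton, adhesion and migration list had a median of 0.40, or 0.43 without lymphoma 5043, with 25 of 46 higher in every lymphoma and 4 lower. Besides Lgals3 it was led by S100a6, a calcium-binding protein, which differed by 0.26, 6.73 and 4.77 in lymphomas 4146, 4936 and 5043. Vim, the filament protein vimentin, named after its values were seen, had 13.40, 13.37 and 11.52 in big cells and 11.74, 10.36 and 9.93 in small cells, so that the big array of lymphoma 5043 lay below the small array of lymphoma 4146. Its other probe sets gave 1.87 and 2.20, against 2.08 for the one used.

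The lowest list medians were those of Myc targets and ribosome biogenesis and of cholesterol and fatty acid synthesis, both -0.30. Without lymphoma 5043 they were -0.31 and -0.35. Of the Myc and ribosome list, 22 of 32 lay lower in big cells of every lymphoma and 1 higher, with medians of -0.37, -0.21 and -0.31. Ddx21, an RNA helicase of the nucleolus, had 9.76, 9.39 and 9.82 in big cells and 10.41, 10.69 and 10.42 in small cells (difference -0.85, SE 0.25, limma adjusted p = 0.223). Ncl, the nucleolar protein nucleolin, differed by -0.77 (SE 0.26). Of the lipid synthesis list, 16 of 30 lay lower in every lymphoma and 2 higher. Msmo1, an enzyme of cholesterol synthesis, differed by -1.06 (SE 0.63) and Elovl6, a fatty acid elongase, by -0.89 (SE 0.37).

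The medians of cell division genes differed in sign between lymphomas. Mitosis genes had medians of 0.04, 0.41 and -0.04 in lymphomas 4146, 4936 and 5043, with 15 of 39 higher in every lymphoma and 3 lower. Over all 3 lymphomas the median was 0.15 for mitosis genes and -0.04 for DNA replication genes, and without lymphoma 5043 it was 0.19 and 0.16. The median of DNA replication genes was 0.55 in lymphoma 4936, against -0.32 in 4146 and -0.36 in 5043, and 1 of 40 lay higher in every lymphoma and 2 lower. The p53 targets had a median of -0.04 (0.26, -0.31 and 0.10), senescence regulators 0.01, interferon response genes 0.01, heterochromatin and chromatin modifiers -0.04 and Wnt and stem-cell genes -0.16. Without lymphoma 5043 these 5 medians lay between -0.14 and 0.02. The stress response list had a median of 0.00, or 0.06 without lymphoma 5043, although Ddit3, a transcription factor of endoplasmic reticulum stress, had 11.22, 12.13 and 11.53 in big cells and 9.40, 8.36 and 10.36 in small cells. A second Ddit3 probe set that passed the filter differed by 1.95, 0.67 and -0.69, so the probe sets disagree in lymphoma 5043. Hmox1, heme oxygenase of the antioxidant list (median 0.06, or 0.11 without lymphoma 5043), had 8.29, 7.74 and 8.70 in big cells and 6.86, 5.38 and 7.64 in small cells.

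**Figure D4:**
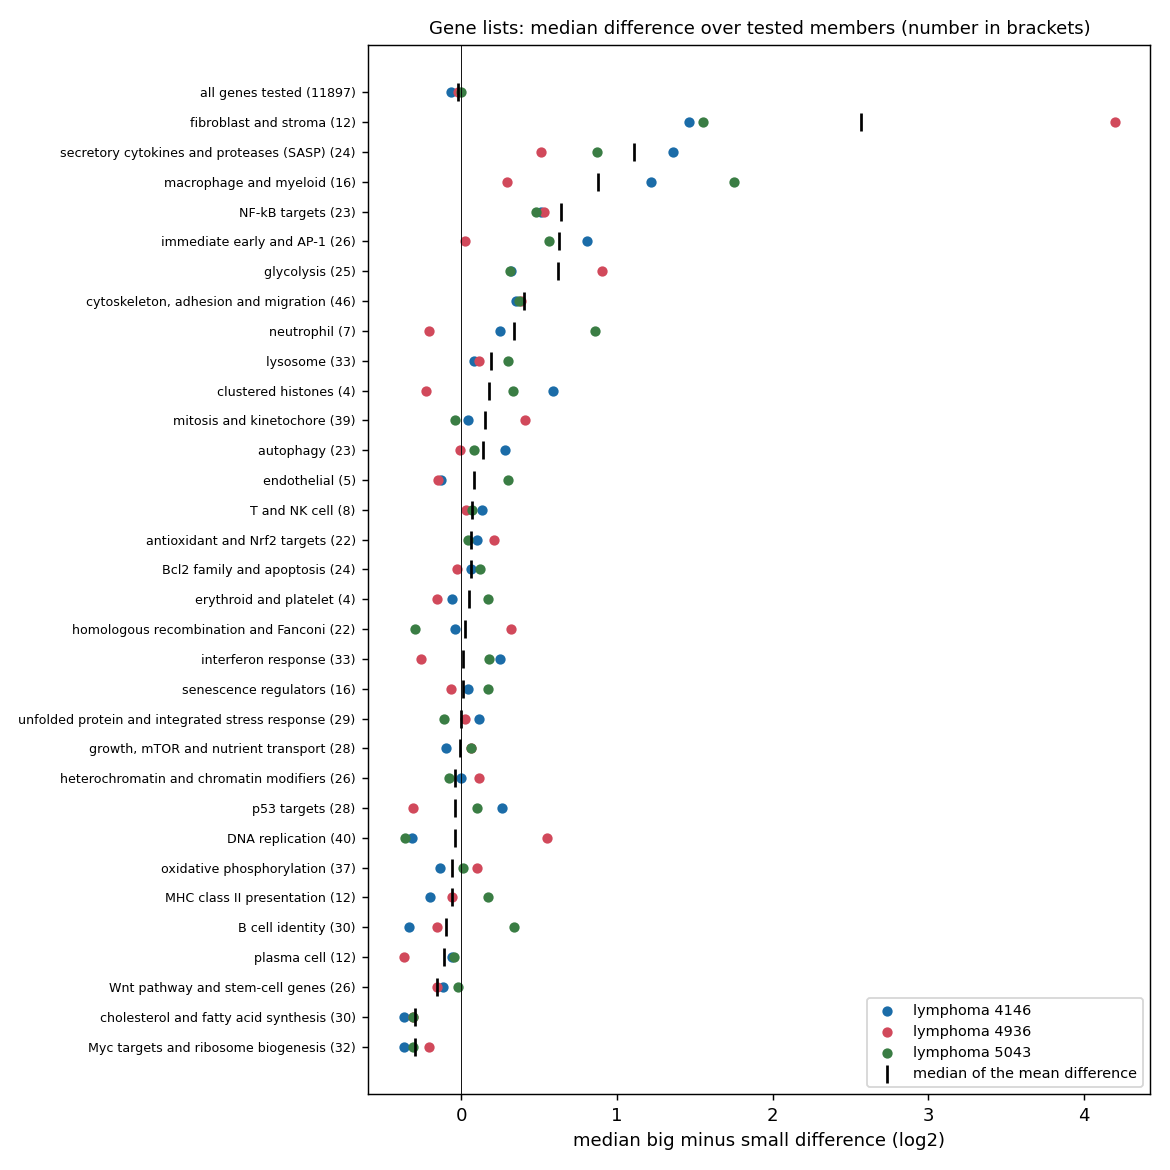
Median big minus small difference (log2) over the tested members of each of 32 gene lists and over all genes, with 1 point per lymphoma and a bar for the median of the mean differences. The fibroblast and stroma list has the highest median (2.57), and the points of lymphoma 4936 lie apart from the others in that list and in DNA replication.

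To place the levels, both sorted populations were set against untreated cells in the same fit. These comparisons share the untreated arrays, and their genes were chosen on the big and small arrays. Big cells differed from untreated cells in 34 genes that rose (0.286% of those tested) and 15 that fell (0.126%), by limma at an adjusted p of 0.05. Without the 3 arrays that stood apart these counts were 77 and 3. Small cells differed from untreated cells in 0 genes (0%), with 987 at an unadjusted p under 0.05 and a lowest adjusted p of 0.21. That the 2 contrasts differ was not tested beyond the big minus small comparison above. Of the 15 higher named genes, 13 were among the 34. Fn1 averaged 10.99 in big cells and 5.44 ± 0.30 (SD, n = 3) in untreated cells, a rise of 5.55 (limma adjusted p = 0.0134), while small cells were 1.62 above untreated cells (limma adjusted p = 0.565). Klf4 rose by 3.40 in big cells over untreated cells (limma adjusted p = 0.0141) and was 0.47 higher in small cells (limma adjusted p = 0.778). Of the 15 lower named genes, 4 were among the 15 that fell.

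The last comparison set big minus small beside the response at 5 days, ADR+4-OHT 5 d minus untreated, with which it shares no array. At 5 days 106 genes rose (0.891% of those tested) and 244 fell (2.05%), by limma at an adjusted p of 0.05. Of the 106, 75 (70.8%) lay above small cells in big cells, where 46.7% of all genes did. Their median big minus small difference was 0.16, with 0.23, 0.15 and 0.18 in lymphomas 4146, 4936 and 5043. Of the 244, 166 lay below, and their median was -0.13, with -0.23, 0.11 and -0.24 by lymphoma, so lymphoma 4936 went the other way. Across all genes the 2 differences correlated with r = 0.345, a description over genes.

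The 106 genes and the 78 genes shared 6 genes, 5.66% of the first list and 7.69% of the second: Mmp13, Lyz1, Lyz2, Cd36, Ccl9 and F9. Mmp13 rose by 6.36 at 5 days (SE 1.18, limma adjusted p = 0.0242) and Lyz2 by 5.87 (SE 1.15, limma adjusted p = 0.0272). Cd36, a fatty acid receptor of macrophages among other cells and named after its values were seen, rose by 4.41 at 5 days (SE 0.69, limma adjusted p = 0.0134). It had 8.40, 6.65 and 7.82 in big cells, against 4.26, 5.29 and 4.77 in small cells. In ADR outgrowth Cd36 averaged 8.27, against 7.62 in big cells. The macrophage marker sum was also higher at 5 days, at 8518, 32000 and 6197 in ADR+4-OHT 5 d cells, against 2091, 2743 and 1247 in untreated cells, and its part in these genes was not tested. Fn1, Klf4 and Emp1 did not pass in ADR+4-OHT 5 d minus untreated, with differences of 1.54, 0.71 and 0.98. In ADR 5 d cells they averaged 7.7, 5.03 and 6.74, against 5.44, 3.46 and 3.66 in untreated cells. The fibroblast marker sum was 1737, 4572 and 1553 in ADR 5 d cells of lymphomas 4146, 4936 and 5043, against 529.5, 427.1 and 673.8 in untreated cells. The ADR 5 d array of lymphoma 4936 stood apart, and ADR 5 d minus untreated was not tested. The mitosis genes, with a median of -1.26 at 5 days, had one of 0.15 between big and small cells.

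**Figure D5:**
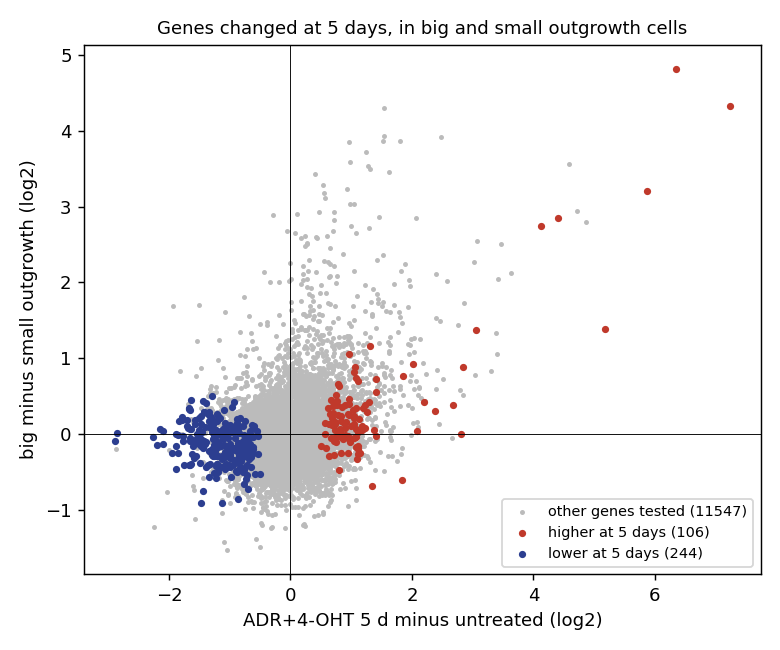
Big minus small difference against the difference between ADR+4-OHT 5 d and untreated cells (both log2) for each tested gene, with the 106 genes that rose and the 244 that fell at 5 days in colour. Most risen genes lie above 0 on the vertical axis (75) and most fallen genes below it (166).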

How the data were processed

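Total RNA of 18 samples was hybridised to Affymetrix mouse arrays with 45101 probe sets. The deposited values are log2 signals, and RMA and Partek are the tools named, without versions, per the submitters' processing notes. For each probe set the medians of the 3 lymphomas were equal (tolerance 1e-06), so lymphoma offsets had been removed before deposit. 1 column, an ADR outgrowth array that failed quality control per the labels, held no values, and 17 were used. Precision is limited by the number of arrays. Of the probe sets, 34958 had 1 gene symbol in the platform annotation, 932 had several and 9211 none listed. Each of 18194 genes took the probe set of highest mean signal, and 11897 genes that reached 4.86, the median over the whole table, on 3 or more arrays were tested. limma 3.58.1 (R 4.3.3) fitted 6 groups and an additive lymphoma term over the 17 arrays (9 residual and 2.53 prior degrees of freedom), with Benjamini-Hochberg adjustment at 0.05. The lymphoma number pairs the arrays, since each lymphoma received the treatments per the labels. An exact sign-flip permutation test of 3 pairs cannot go below a two-sided p of 0.25 and was not used. The comparison and 32 gene lists (835 of 911 entries with a probe set) were chosen with earlier results of these data known. Genes named are Bcl2, Myc, Cdkn1a, Cdkn2a, Mki67, the 15 higher and 15 lower genes of lowest p with 1 sign in all lymphomas, and 2 members per list with the largest such difference. Xist, Sparc, Col1a2, Col6a3, Dcn, Pdgfra, Adgre1, Ptprc, Il6, Vim, Pigm, Cd36, Ccl9, F9, Ahnak2, Cfp and Fcer1g lay outside this rule and were named after their values were seen. Whether the 2 sorted arrays of lymphoma 5043 are cells of that lymphoma is in doubt, and the lymphoma term treats them as such. The method was also run on simulated arrays with independent noise, without lymphoma offsets and without arrays that stand apart. That run cannot show how the fit behaves with such arrays.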

Additional observations from a re-analysis of the deposited data

Results flagged for a closer look

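Probe sets with several gene symbols or with none listed lay outside the comparisons above. Of 3462 such probe sets that passed the filter, 21 (0.607%) were at least 2-fold higher in big cells of every lymphoma and 6 (0.173%) were at least 2-fold lower. They are listed because they show a difference between big and small cells in data that the gene-level comparison does not use, and the genes they belong to are not named here. Among probe sets with 1 gene symbol, each counted by itself, 113 of 21220 were at least 2-fold higher and 36 at least 2-fold lower. The shares of 0.656% and 0.0252% given above count genes, each by its brightest probe set, and are not a like comparison.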

How the results depend on the processing

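The count of 0 called genes held under no filter, the stricter filter, the mean over probe sets, median centring, quantile normalisation, robust fitting with a variance trend, the 6 sorted arrays only, and without each lymphoma (0 to 0). It became 30 with no replicate block for lymphoma, 68 with every probe set on its own, 261 with array weights (whose estimation stopped before it converged) and 3 without the 3 arrays that stood apart. Of 2 alternatives chosen after seeing the data, leaving out the 2 sorted arrays of lymphoma 5043 gave 0, and the 6 sorted arrays with trend and robust fitting gave 6 (Ccl3, Ier3, Lcn2, Ahnak2, Cfp and Fcer1g). The number of genes at least 2-fold higher in every lymphoma ran from 111 to 181 with 1 lymphoma left out and was 181 without the 3 arrays that stood apart or without the 2 sorted arrays of lymphoma 5043. The number lower ran from 7 to 22 with 1 lymphoma left out, and was 11 without those 3 or those 2 arrays, 5 with median centring and 36 over every probe set. Fewer lymphomas make this rule easier to meet, and for the others the cause was not tested. Bcl2, at -0.01 in the fit described above, was at 0.40 with the mean over probe sets, 0.03 with quantile normalisation, 0.08 with array weights and -0.03 to 0.00 with 1 lymphoma left out, and Bcl2l2 turned to -0.11 with the mean over probe sets. No other gene named by the rule changed direction under these alternatives. Genes named after their values were seen were not part of this check.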
